A study of Mus musculus with 10 samples.

Results

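Of the 1561 intronic polyadenylation (IPA) sites that the authors' deposited tables list for U1 antisense treatment of 4T1 cells, 205 sites (13.1%) in 179 genes had no read in either untreated 4T1 library. These 205 sites, called silent sites here, were chosen by a value of 0 in both 4T1 columns of the tables. All 205 stood in the table of sites that were higher under treatment, where they made up 15.0% of 1368 sites, and none of the 193 sites in the opposite table was silent. The choice used the comparison of treated with untreated 4T1 cells, so every value from that comparison is given as a description, with no test. Only the peak lists of the other lines were independent of the choice.

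The series holds 10 libraries of 3'-end sequencing, a method that reads the junction between a transcript and its poly(A) tail, from 5 groups of 2 cultured mouse mammary tumour libraries. 4T1-U1-ASO cells are 4T1 cells that received antisense morpholino oligonucleotides against the U1 small nuclear RNA with a delivery reagent at 6 µl/mL, and 4T1 is the invasive parental line. A mock-transfected control is named in the series design, but no treatment is given in the sample labels of 4T1. The other groups are the related lines 4T07, labelled invasive, and 168FARN and 67NR, labelled non-invasive. All lines were grown in the same medium with serum, and each line stands for a single tumour-derived line. Whether paired libraries of a group stem from different cultures is not stated, so a p-value here reflects library-to-library spread, possibly only technical. The U1 RNA itself has no poly(A) tail and is not measured by this assay, so the block of U1 could not be checked at its target.

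U1 is the RNA of the small nuclear particle that recognises 5' splice sites. Apart from splicing, it is known to keep the cleavage and polyadenylation machinery from using poly(A) signals inside introns, an activity called telescripting. A transcript that ends at an IPA site lacks the exons downstream of it, and depending on the site it can encode a shortened protein or little protein at all. IPA usage of a site is given here as the percentage of its own IPA reads among these and the last-exon reads of its gene. It is taken within 1 library, so the scaling of a library cancels in it. IPA reads at other listed sites of the same gene are left out, so usage is not a share of all reads of a gene.

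Peak lists held 2596503 and 2643219 reads in the 4T1-U1-ASO libraries, against 2499475 and 2795040 reads in the 4T1 libraries. Lists of the other lines held 1427728 to 3347776 reads. The list of 67NR replicate 2 covers 10 chromosomes, and 7 of the 10 lists hold no peak on chromosome X or Y. Cdh1, which encodes E-cadherin and marks epithelial cells, had 1305 and 1370 last-exon reads in 4T1-U1-ASO, against 800 and 952 in 4T1. Vim, which encodes the mesenchymal filament protein vimentin, had 3017 and 2772 last-exon reads in 4T1-U1-ASO, against 12512 and 13028 in 4T1. Fn1, which encodes the matrix protein fibronectin, had 1895 and 2028 last-exon reads in 4T1-U1-ASO, against 2080 and 2551 in 4T1. All 3 markers were thus read in treated and untreated cells. Read counts are not scaled between libraries. A read stands for 0.798 and 0.788 units of the deposited normalized signal in the 4T1-U1-ASO libraries, and for 1.386 and 1.034 in the 4T1 libraries. Counts set side by side, here and below, are therefore no measure of a change between treated and untreated cells.

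Silent sites carried few reads even under treatment. The mean over the 2 4T1-U1-ASO libraries ran from 5.5 to 46.5 IPA reads per site, with a median of 7.5. The other 1163 sites of the same table, which had at least 1 read in 4T1, had a median of 17.5 reads in 4T1-U1-ASO and the same minimum of 5.5. At least 5 reads in each 4T1-U1-ASO library were seen at 164 silent sites, at least 10 at 40 sites and at least 20 at 11 sites. The 2 treated libraries differed by less than 2 times in reads at 154 of the 205 sites, and replicate 1 had the higher count at 99.

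Median usage of the silent sites in 4T1-U1-ASO was 3.37%, with a range of 0.176% to 51.0%. The other sites of the same table had a median of 5.62% in 4T1-U1-ASO and 1.03% in 4T1. Usage reached 10% at 33 silent sites (16.1%), against 380 of the 1163 other sites (32.7%), and reached 20% at 4 silent sites, against 174 other sites.

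A 0 in 4T1 is a limit and not a measured absence. An IPA signal equal to the median of the silent sites in 4T1-U1-ASO corresponds to 4.29 reads in 4T1 replicate 1 and 5.75 reads in replicate 2, and that of the weakest site to 3.14 and 4.21 reads. For a count of 0, 3 reads over both 4T1 libraries were taken as an approximate 95% upper limit. What 0 reads are said to allow, here and below, is this limit and not a hard ceiling. By it, usage in 4T1 could reach 0.909% at the median silent site. Usage in both 4T1-U1-ASO libraries lay above this limit at 201 of 205 sites, a count that the choice of the sites favours. The exceptions were the sites of Agfg1, Efr3a and Ifnar1 and the Chka site at chr19:3879538-3879823, each with 1 to 5 reads in 4T1-U1-ASO replicate 2 and 10 to 16 in replicate 1; these were named after their values were seen. The limits cover counting error only, since PCR reads without molecular identifiers are not independent molecules.

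**Figure D1:**
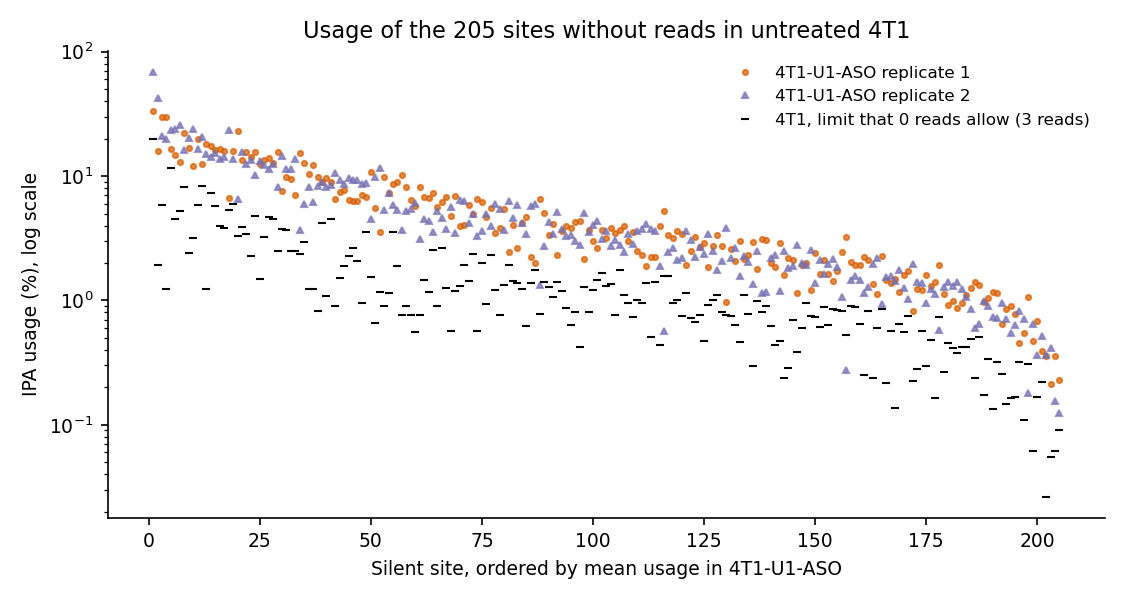
IPA usage in percent (log axis) at each of the 205 silent sites, ordered along the x axis by mean usage in 4T1-U1-ASO. Circles and triangles are the 2 4T1-U1-ASO libraries, and dashes are the usage that 3 reads over both 4T1 libraries would give. At 201 sites both symbols lie above the dash, which the choice of the sites favours.

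Silent sites were found in genes with less deeply read last exons. Last-exon reads over both 4T1 libraries had a median of 327 for silent sites, against 750 for the other sites of the table. When the 1561 listed sites were split into 4 parts by mean last-exon signal over the 4 libraries, silent sites made up 26.6%, 20%, 10.4% and 5.21% of the sites higher under treatment, in order of rising signal. The 161 sites with exactly 1 read over both 4T1 libraries stand just outside the rule. Their median was 8.5 reads and 3.87% usage in 4T1-U1-ASO. The 3 of them with the most treated reads lie in Cpsf6, Nupr1 and Ythdf3. The Cpsf6 site had 64 and 52 reads in 4T1-U1-ASO, against 0 and 1 in 4T1. The Nupr1 site had 56 and 49 reads in 4T1-U1-ASO, against 0 and 1 in 4T1. The Ythdf3 site had 45 and 35 reads in 4T1-U1-ASO, against 0 and 1 in 4T1. The Cpsf6 and Nupr1 sites had more treated reads, on average, than any silent site.

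Luc7l2 held more silent sites than any other gene. It encodes a protein associated with the U1 particle that takes part in the choice of 5' splice sites. Its 5 silent sites span 10060 bp of chromosome 6 (chr6:38505279-38515338, plus strand, mm9). The fourth of them, chr6:38513199-38513407, was the silent site with the most reads, 59 and 34 in 4T1-U1-ASO against 0 and 0 in 4T1. Its usage was 25.1% ± 7.14 in 4T1-U1-ASO (SD, n = 2), while 0 reads in 4T1 allow up to 1.23%. The third, chr6:38509779-38510153, had 30 and 24 reads and the second had 16 and 12 reads in 4T1-U1-ASO. The fifth had 19 and 9 reads, and the first 6 and 6. Together the 5 sites had 130 and 85 reads, beside 137 and 136 last-exon reads in 4T1-U1-ASO and 76 and 165 last-exon reads in 4T1. Their summed share of these reads was 43.6% ± 7.23 in 4T1-U1-ASO (SD, n = 2). In the authors' deposited table the log2 ratio of the Luc7l2 last-exon signal, 4T1-U1-ASO minus 4T1, was -0.35. A further listed site of Luc7l2, the most downstream, is not silent: it had 105 and 101 reads in 4T1-U1-ASO, against 0 and 3 in 4T1.

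Tsc22d2, a member of the TSC22 domain family of leucine zipper proteins, held 4 listed sites, and all 4 were silent. They span 5987 bp (chr3:58251848-58257834). The first had 20 and 13 reads, the second 7 and 15, the third 10 and 6, and the fourth 15 and 13 in 4T1-U1-ASO. Read levels along the 4 sites overlapped. Their summed share was 7.99% ± 0.598 in 4T1-U1-ASO (SD, n = 2).

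Chka encodes choline kinase alpha, the first enzyme of phosphatidylcholine synthesis from choline. Its 3 silent sites are the 3 most downstream of 9 listed sites. The strongest of them, chr19:3881583-3881986, had 30 and 25 reads in 4T1-U1-ASO and a usage of 3.18% ± 0.506. The other two had 16 and 5 reads and 20 and 12 reads in 4T1-U1-ASO. The 6 upstream sites of Chka all had reads in 4T1, and in 4T1-U1-ASO they had 43 to 631 reads in a library.

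Ogt encodes O-GlcNAc transferase, which adds single sugar residues to nuclear and cytoplasmic proteins. Its 3 silent sites lie on chromosome X. The strongest, chrX:98849315-98849627, had 22 and 24 reads and a usage of 7.80% ± 1.13 in 4T1-U1-ASO. The others had 9 and 9 reads and 6 and 5 reads. A listed site upstream of the first silent one had reads in 4T1, with 40 and 21 reads in 4T1-U1-ASO, against 1 and 1 in 4T1.

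**Figure D2:**
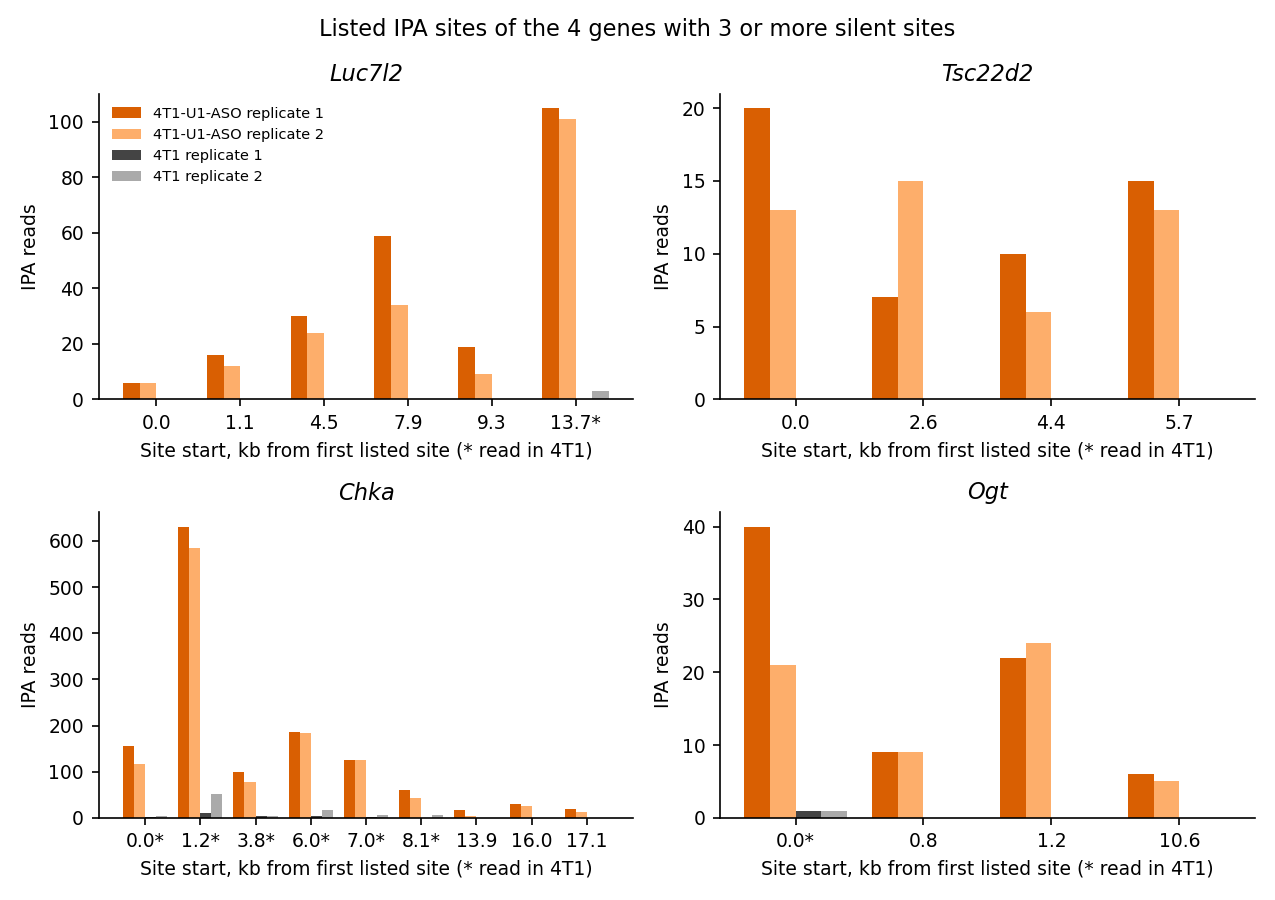
IPA reads (y axis) at every listed site of the 4 genes with 3 or more silent sites, placed along the x axis in order of distance in kb from the first listed site. Bars are single libraries, and an asterisk marks a site with reads in 4T1. The silent sites of Luc7l2 lie upstream of the asterisked site, and those of Chka downstream of 6 of them.

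Beyond these genes, 160 genes held 1 silent site and 15 held 2. Another listed site with reads in 4T1 was present in 66 of the 179 genes. Among the 99 silent sites in genes with several listed sites, 37 were the most upstream listed site and 33 the most downstream. Another site of the same gene had more treated reads at 88 of these 99. In a gene with 2 listed sites, each is by default the most upstream or the most downstream. Silent sites also had fewer treated reads than the other sites higher under treatment (median 7.5 against 17.5). The same counts were not made for those other sites, so these are not traits of silent sites alone. The distance between the start of a silent site and that of the nearest other listed site of its gene had a median of 3397 bp.

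After Luc7l2, the silent sites with the most reads lay in Far1, Rock1, 9330188P03Rik, Chka, Fgfr1op2 and Gpbp1l1. Far1 encodes a peroxisomal reductase that makes fatty alcohols for ether lipids. Its site at chr7:120699752-120700429 had 34 and 28 reads in 4T1-U1-ASO and a usage of 7.33% ± 0.0231 (SD, n = 2). Rock1 encodes a kinase that acts on the actin and myosin cytoskeleton. Its site at chr18:10095406-10095593 had 27 and 34 reads and a usage of 19.99% ± 5.12 in 4T1-U1-ASO. Last-exon reads of Rock1 were 138 and 110 in 4T1-U1-ASO, against 9 and 14 in 4T1, so that 0 reads in 4T1 allow a usage of up to 11.5% there. Gpbp1l1, which encodes a paralogue of a GC-rich promoter binding protein, had 24 and 26 reads at chr4:116249997-116250751 and a usage of 18.5% ± 2.496 in 4T1-U1-ASO. The 9330188P03Rik locus had 27 and 32 reads at chr14:105990745-105991318 and a usage of 15.1% ± 1.24. The site in Suco, a gene of a membrane protein of the endoplasmic reticulum, had as many reads on average as that of Gpbp1l1, with 29 and 21 in 4T1-U1-ASO and a usage of 12.7% ± 1.84. The 2 treated libraries were close for Far1, Gpbp1l1 and 9330188P03Rik.

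Several other sites with high usage had fewer reads. Ddx18, which encodes an RNA helicase of ribosome assembly, had 3 and 14 IPA reads beside 16 and 19 last-exon reads in 4T1-U1-ASO, at chr1:123462134-123462281. Its usage was 15.8% and 42.4% in the 2 treated libraries, which did not agree. Sik2, a salt-inducible kinase, had 8 and 4 IPA reads and a usage of 25.3% ± 6.06 in 4T1-U1-ASO. Hsf2, a heat shock transcription factor, had 7 and 18 reads and a usage of 19.4% ± 6.44. Mtfmt, which formylates the initiator tRNA of mitochondria, had 3 and 8 reads and a usage of 19.4% ± 9.02. Ift88, a component of the transport complex in cilia, had 12 and 6 reads and a usage of 19.2% ± 4.25. The site with the highest value, 51.0% ± 25.04, lay in Slc25a48, a mitochondrial carrier gene with 3 and 11 IPA reads and 6 and 5 last-exon reads in 4T1-U1-ASO. It had too few reads for the rule on named sites and was named after its values were seen.

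Silent sites were also counted in gene lists, beside their share of 15.0% of all sites higher under treatment. Among genes of the U1 particle, the spliceosome and RNA helicases, 8 of 39 sites higher under treatment (20.5%) were silent. They belonged to Luc7l2, which held 5 of them, and to Rbm39 and Rbm5, the last 2 being splicing regulators. The Rbm39 site had 27 and 16 reads in 4T1-U1-ASO and a usage of 2.30% ± 1.03. Of 46 sites in SR and hnRNP protein genes, 4 (8.70%) were silent. Ptbp2, the polypyrimidine tract binding protein known from neurons, had 17 and 11 reads and a usage of 15.1% ± 1.95 in 4T1-U1-ASO. Tra2a, a regulator that binds exonic splicing enhancers, had 10 and 11 reads and a usage of 2.01% ± 0.262. Hnrnpc and Hnrnpm, which encode abundant proteins bound to nascent RNA, had usages of 0.954% ± 0.309 and 0.727% ± 0.249. The list of cleavage and polyadenylation factors held 3 silent sites among 14 (21.4%). Rbbp6, a ubiquitin ligase of the cleavage complex, had 11 and 9 reads and Cpsf6, a subunit of cleavage factor I, had 6 and 8 reads in 4T1-U1-ASO. Cdk13, which the list includes although it is a kinase of RNA polymerase II elongation, had 4 and 12 reads.

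Growth signalling genes held 6 silent sites among 17 sites higher under treatment. Nf1, a negative regulator of Ras, had 14 and 13 reads at chr11:79280791-79281303 and a usage of 18.1% ± 2.31 in 4T1-U1-ASO. Its last exon had only 7 and 41 reads in 4T1, so 0 reads there allow up to 5.88%. Pik3cb, a catalytic subunit of PI3 kinase, had 11 and 13 reads and a usage of 8.15% ± 0.648. The 2 treated libraries differed by less than 2 times in usage at Nf1 and at Pik3cb.

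Ubiquitin pathway genes held 6 silent sites among 35. Ube2b, Ube2d3 and Ube2k, all ubiquitin conjugating enzymes, had usages of 2.14% ± 1.11, 1.499% ± 0.0698 and 0.980% ± 0.0127 in 4T1-U1-ASO, and the ligase Rnf146 had 9.31% ± 4.75. DNA repair genes held 2 silent sites among 10. Smc5, a subunit of a complex that holds chromosomes during repair, had 25 and 23 reads and a usage of 8.69% ± 0.290. Xrcc5, which encodes the Ku80 subunit that binds broken DNA ends, had 9 and 6 reads.

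Adhesion and cytoskeleton genes held 3 silent sites among 46, in Rock1, Myo5a and Arhgap29. Arhgap29, a GTPase-activating protein, had 9 and 6 reads and a usage of 14.7% ± 1.52 in 4T1-U1-ASO, and Myo5a, an organelle motor, had 11 and 9 reads and 3.41% ± 0.368. Membrane traffic genes held 2 among 23: Dnm2, the dynamin that severs vesicles, with a usage of 14.04% ± 2.18, and Rab14, a GTPase of endosome traffic, with 0.796% ± 0.213. Polymerase II transcription genes held 2 among 9. Taf15, an RNA-binding protein associated with the TFIID complex, had 17 and 19 reads and a usage of 1.97% ± 0.0649, and Aff4, a scaffold of the super elongation complex, had 8 and 15 reads.

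Cell cycle, chromatin, and Notch, Wnt and TGF-beta genes each held 1 silent site. These lay in Kif11, the motor that separates spindle poles, in the histone chaperone gene Hira and in Notch2, with usages of 4.01% ± 2.498, 3.61% ± 0.3328 and 5.54% ± 1.68 in 4T1-U1-ASO. Translation factor and ribosomal protein genes held 0 silent sites among 20, and the epithelial and mesenchymal marker lists 0 among 1 and 0 among 5. The lists were counted and not tested; silent sites were 15.0% of all sites higher under treatment.

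Last-exon signal was about level between treated and untreated cells for silent sites, and lower in treated cells for most other sites of the same table. In the authors' deposited table, the log2 ratio of the last-exon signal, 4T1-U1-ASO minus 4T1, had a median of -0.01 over the silent sites. It was -0.83 over the other sites higher under treatment and -0.67 over all listed sites. The last-exon signal was higher in 4T1-U1-ASO at 100 of 205 silent sites (48.8%), against 167 of 1163 other sites (14.4%). With each gene counted once, the medians were -0.03 over 179 genes and -0.82 over 864 genes. These ratios come from libraries that chose the sites, and last-exon signal is part of what the authors tested, so they are a description. In bulk RNA, fewer cells that make a transcript and less of it per cell cannot be told apart.

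Within the 4 parts of the listed sites split by mean last-exon signal, the median ratio over silent sites was -0.09, 0.04, 0.45 and -0.53, in order of rising signal. For the other sites higher under treatment it was -0.61, -0.71, -0.86 and -1.03. The median over silent sites was higher than that over the others in each part. The part with the highest signal held only 19 silent sites, of which 5 were higher in 4T1-U1-ASO. This split uses the same 4 libraries that chose the sites. It does not separate the ratio from the choice of sites without reads in 4T1, and is a description too.

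Single genes lay far from these medians on either side. Ddx18 had 16 and 19 last-exon reads in 4T1-U1-ASO, against 62 and 91 in 4T1, a log2 ratio of -2.70 in the authors' deposited table. Gsr, which encodes glutathione reductase, had 56 and 56 last-exon reads in 4T1-U1-ASO, against 138 and 135 in 4T1 (log2 ratio -1.90 in the authors' deposited table). On the other side, Rock1 had a log2 ratio of 2.87 in the authors' deposited table, and Smc5 had 256 and 248 last-exon reads in 4T1-U1-ASO, against 15 and 48 in 4T1 (2.5). Suco had 178 and 163 reads in 4T1-U1-ASO, against 7 and 54 in 4T1 (2.04 in the authors' deposited table). Gsr, Suco and the last-exon ratios of Ddx18, Rock1 and Smc5 were chosen here for these values after they were seen.

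**Figure D3:**
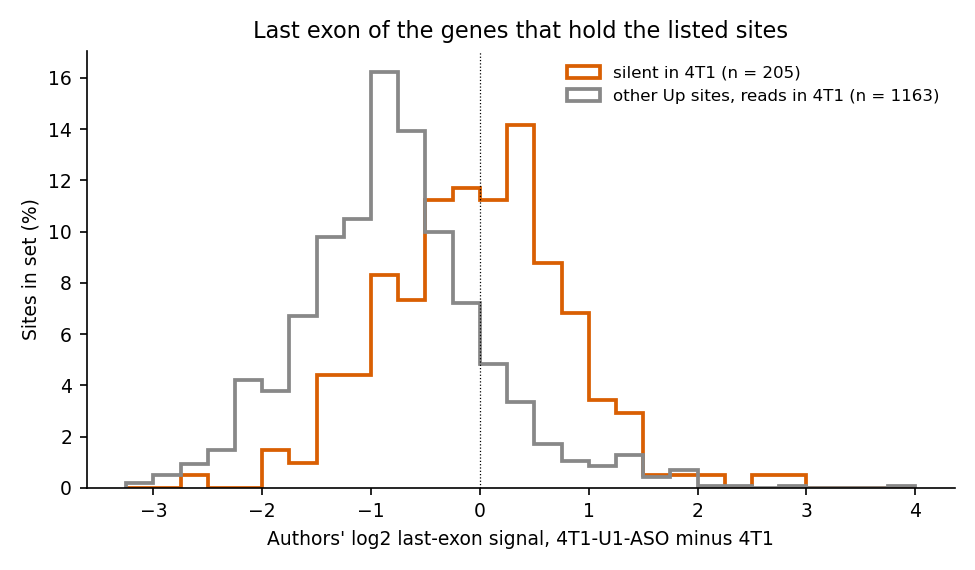
Distribution of the authors' log2 last-exon ratio, 4T1-U1-ASO minus 4T1 (x axis), over silent sites and over the other sites higher under treatment, each as the percentage of its own set (y axis). The silent sites centre at -0.01 and the others at -0.83.

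Reads at the same intervals were also counted in the peak lists. A site was counted as read in a library where a peak of the same strand overlapped its interval by at least 1 bp. For 4T1-U1-ASO and 4T1 these are largely the reads of the tables: where a table site had a peak in the list of its own library, both counts were equal at 90.1% to 95.4% of sites. In 4T1-U1-ASO, 163 and 148 of 205 silent sites had list reads. In 4T1 none of the 198 on listed chromosomes had any, which the choice of the sites fixes. The lists are filtered and leave out part of the reads: of sites with table reads, 73.2% and 68.4% had a peak in the list of the same 4T1-U1-ASO library and 45.9% and 47.2% in that of the same 4T1 library. A site without list reads may therefore still have been read. Conversely, a peak that overlaps an interval can hold reads that lie outside it.

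A 4T1 peak lay within 1000 bp of 69 silent sites (33.7%) on the same strand, with a median of 2 reads over both libraries. At 11 of them the neighbouring peaks held 20 reads or more. The site in Tm9sf3, a gene of the transmembrane 9 family, had 270 and 548 such reads, in a peak that lies 243 to 246 bp downstream of the interval in 4T1. The site in Lpgat1, which encodes a lysophospholipid acyltransferase, had 82 and 110 reads, 290 to 319 bp downstream. Lpgat1 and Tm9sf3 were chosen after their values were seen. In Rbm39 the neighbouring peak had 54 and 117 reads in 4T1, and lay 786 to 787 bp upstream of the silent site. The other 136 silent sites had no 4T1 peak within that distance.

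Fgfr1op2 shows how the bounds of an interval set what counts as silent. This gene is named as a fusion partner of the growth factor receptor gene FGFR1. Its silent interval, chr6:146540441-146540761, had 24 and 31 reads in 4T1-U1-ASO, against 0 and 0 in 4T1, and a usage of 12.9% ± 0.529 in 4T1-U1-ASO. A separate peak 394 to 458 bp downstream had 36 and 41 reads in 4T1-U1-ASO, against 60 and 49 in 4T1. The same downstream peak had 82 and 107 reads in 4T07 and 388 and 325 in 168FARN, and no list of the other lines that holds chromosome 6 had a peak in the silent interval.

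In the other lines, 40 and 44 of 198 silent sites had list reads in 4T07, 25 of 198 and 30 of 205 in 168FARN, and 46 of 198 and 33 of 94 in 67NR. The exact (Clopper-Pearson) 95% intervals of these shares, in counting error only, were 14.8% to 26.5% and 16.6% to 28.7% for 4T07, 8.34% to 18.1% and 10.1% to 20.2% for 168FARN, and 17.5% to 29.7% and 25.5% to 45.6% for 67NR. The mean share was 21.2% ± 1.43 in 4T07, 13.6% ± 1.42 in 168FARN and 29.2% ± 8.40 in 67NR (SD, n = 2 libraries). Both 4T07 libraries lay above both 168FARN libraries and below both 67NR libraries. The difference between 4T07 and 168FARN was 7.58 percentage points, and that between 4T07 and 67NR was -7.96 points. The two-sided exact permutation test gave p = 0.3333 for each, before and after adjustment over the 2 comparisons, which is the smallest value that 2 libraries against 2 allow. On the 10 chromosomes of every list, which hold 94 silent sites, the shares were 21.3% and 20.2% in 4T07, 13.8% and 17.0% in 168FARN, and 24.5% and 35.1% in 67NR.

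The other sites of the same table were read more often in every line. The mean shares for these sites were 37.1% ± 0.0620 in 4T07, 34.6% ± 0.986 in 168FARN and 39.7% ± 4.89 in 67NR. For the 161 sites with 1 read in 4T1, they were 26.2% ± 3.54 in 4T07, 23.0% ± 3.42 in 168FARN and 34.0% ± 12.8 in 67NR. The silent sites also have last exons with fewer reads, and the part of this in the lower shares was not tested.

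**Figure D4:**
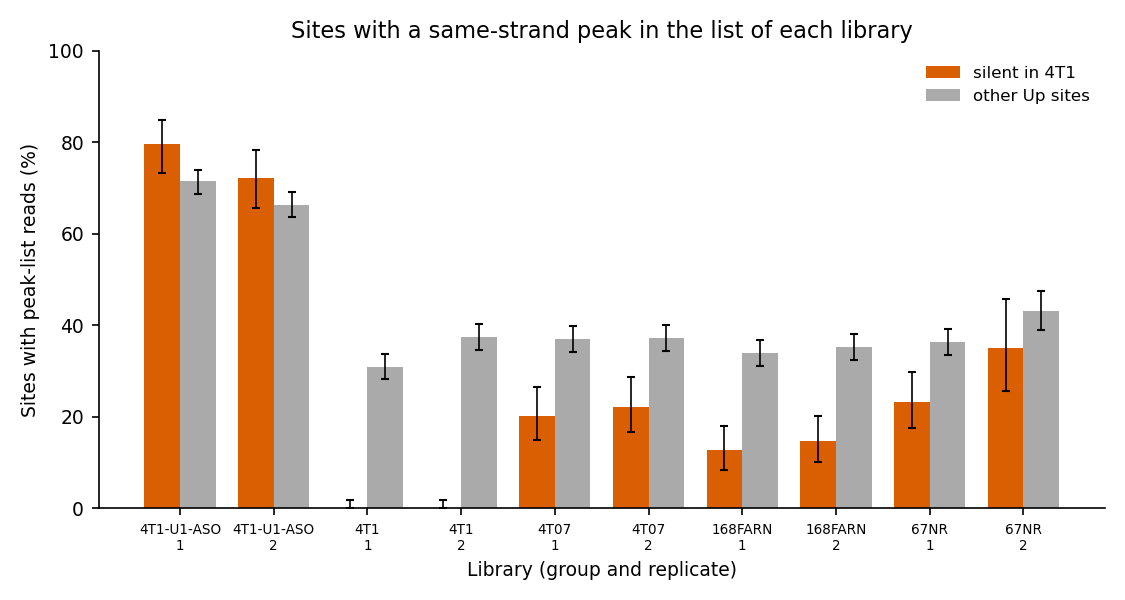
Percentage of sites with a same-strand peak in the list of each library (y axis), for silent sites and for the other sites higher under treatment. Each pair of bars is 1 library, and error bars are exact 95% intervals for counting error. Silent sites are at 0 in 4T1 and between 12.6% and 35.1% in the other lines.

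Reads were sparse where they occurred. Of the 205 silent sites, 100 (48.8%) had list reads in at least 1 of the 6 libraries of the other lines, 49 had at least 3 reads in some library, and 2 had at least 10. List reads were present in all 3 lines at 19 sites and in all 6 libraries at 2 sites, those of Prkag1 and Nploc4, which encodes a cofactor of the chaperone VCP. Among the 94 sites on chromosomes of every list, 53 (56.4%) had list reads in the other lines. The 89 and 110 list reads at silent sites were 32.3 and 35.4 RPM, scaled to all reads of the list, in 4T07. In 168FARN they were 24.7 and 24.8 RPM, and in 67NR 29.6 and 96.0 RPM. In 4T1-U1-ASO the silent sites had 599.7 and 555 RPM, a height that the choice of the sites favours and that tests nothing. These sums cover 205 sites in 4T1-U1-ASO and 168FARN replicate 2, and 94 in 67NR replicate 2. In both 4T07 libraries, 168FARN replicate 1 and 67NR replicate 1 they cover 198.

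Prkag1 had the most list reads in the other lines. It encodes a regulatory gamma subunit of the AMP-activated protein kinase, a sensor of cellular energy. Its silent interval, chr15:98645923-98646173 on the minus strand, had 12 and 5 reads in 4T1-U1-ASO, against 0 and 0 in 4T1, and a usage of 7.62% ± 3.25 in 4T1-U1-ASO. The peaks that overlap it held 9 and 20 reads in 4T07, 19 and 18 in 168FARN, and 3 and 11 in 67NR. All 6 libraries of the other lines thus had a peak that overlaps the interval, and the 4T1 lists had none. The overlapping peaks of the other lines were 241 to 740 bp long and ran beyond the interval at its upstream end. That of 67NR replicate 1, the shortest, had 58 bp inside the interval. That of 4T07 replicate 1 also ran beyond the downstream end. A wider interval of this gene, chr15:98645796-98646946, is listed in the authors' deposited table of 67NR and 4T1. There 4T1 had 2 and 1 IPA reads, a usage of 0.917% ± 0.470, against 13 and 26 reads and 7.15% ± 3.98 in 67NR. The site is thus silent in 4T1 only within the narrower interval.

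Fgfr1op2 and Tra2a were the other silent sites that fall inside an interval of a line table. The Fgfr1op2 interval, chr6:146540441-146541505, takes in the downstream peak, and its IPA reads in 4T1 were 60 and 49, a usage of 39.2% ± 19.6, against 389 and 326 reads and 70.7% ± 4.86 in 168FARN. In 4T07 the same interval had 84 and 112 reads and a usage of 50.5% ± 0.107. The Tra2a interval, chr6:49209572-49211611, extends far upstream of the silent site and had 40 and 42 reads in 4T07, against 9 and 13 in 168FARN. Within the silent site of Tra2a, chr6:49209572-49209778, the lists of these lines held 0 and 0 reads in 4T07, against 0 and 1 in 168FARN.

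Several sites had reads in some lines and not in others. Eri3, an exoribonuclease gene, had 7 and 9 list reads in 4T07, against 7 and 0 in 168FARN and 0 in 67NR replicate 1, and its chromosome is missing from the list of 67NR replicate 2. The 9330188P03Rik site had 0 and 0 reads in 4T07, against 6 and 9 in 67NR and 0 and 0 in 168FARN. Memo1, which encodes a mediator of cell motility, showed the same pattern, with 0 and 0 in 4T07, against 3 and 7 in 67NR and 0 and 0 in 168FARN. Mtbp, an MDM2-binding protein gene, had 6 and 0 reads in 4T07, against 5 and 8 in 168FARN and 3 and 3 in 67NR. The 2 libraries of 4T07 disagreed at Mtbp, while those of 67NR matched.

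Arap1, a regulator of small GTPases, had 3 and 3 reads in 4T07, against 2 and 2 in 168FARN. Rnf24, a RING finger protein gene, had 3 and 3 reads in 4T07, against 0 and 0 in 168FARN. Vcpkmt, a methyltransferase that acts on the chaperone VCP, had 0 and 0 reads in 4T07, against 3 and 6 in 168FARN. Galc, a lysosomal galactosylceramidase gene, had 0 and 0 reads in 4T07, against 6 and 0 in 168FARN. Map3k3, a kinase of the MAP kinase cascade, had 1 and 0 reads in 4T07, against 0 and 12 in 67NR, and Hsf2 had 3 and 0 in 4T07, against 3 and 9 in 67NR. None of these sites had more than 12 list reads in a line library.

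**Figure D5:**
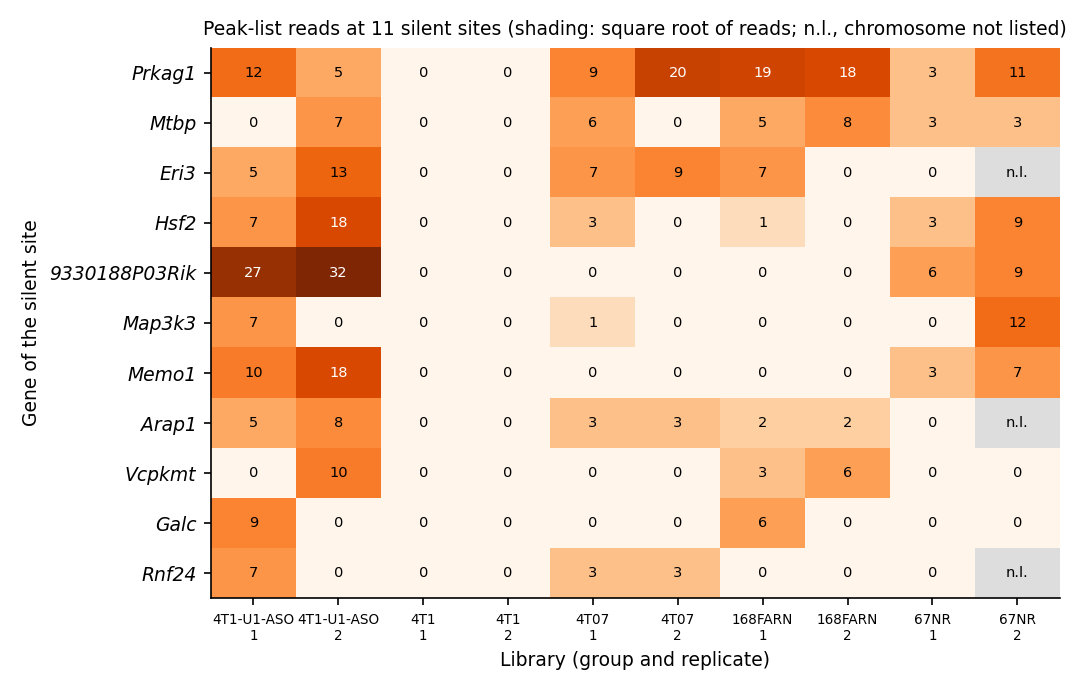
Peak-list reads at the 11 silent sites with the highest RPM in the other lines (rows), in each of the 10 libraries (columns), with darker shading for more reads. The label n.l. marks a chromosome that the list does not hold. Both 4T1 columns are 0, and Prkag1 has an overlapping peak in all 6 libraries of the other lines.

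Differences between lines were tested with edgeR's quasi-likelihood test on list reads at all intervals of the U1 antisense tables with at least 5 reads over the 4 libraries, with Benjamini-Hochberg adjustment. Between 4T07 and 168FARN, 722 intervals were tested and 0 passed an adjusted p of 0.05 (percent called 0), so 0 of 21 silent sites with enough reads passed. Unadjusted p lay under 0.05 at 72 of the 722 intervals and at 0 of the 21 silent sites. DESeq2 called 30 of the 722 intervals (4.16%) and 0 silent sites. Between 4T07 and 67NR, 394 intervals on the 10 shared chromosomes were tested and 3 passed (0.761%), all lower in 4T07, with 0 of 25 silent sites among them. Unadjusted p lay under 0.05 at 38 intervals and at 0 silent sites, and DESeq2 called 6 intervals (1.52%) and 0 silent sites. Silent sites below the minimum were not tested: 177 of 198 in the first comparison and 69 of 94 in the second.

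The lowest adjusted p at a silent site was 0.585 for 4T07 against 168FARN and 0.568 for 4T07 against 67NR (edgeR). Prkag1, the most read, had a log2 difference of -0.38 with a standard error of 0.582 for 4T07 minus 168FARN, and an adjusted p of 0.831 in edgeR. For 4T07 minus 67NR its log2 difference was 1.22 with a standard error of 1.105, and the adjusted p was 0.677 in edgeR. Both values turn on the overlap rule: with at least 50% of a peak inside the interval, neither 4T07 library had a read there, and 1 library of each other line did. The fitted log2 values were then -6.29 and -5.43, which depend on the prior count and give no bound on the difference. Standard errors were 1 log2 unit or more at 20 of the 21 silent sites in the first comparison and at all 25 in the second. At this depth a p that misses the threshold does not show that the lines were alike at these sites.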

How the data were processed

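The 10 peak lists, 1 per library, hold whole-number counts of reads per peak as deposited by the authors; no source used here states what was filtered out. Per the submitters' processing notes, the tools were DESeq2 1.4.5, Bowtie2 2.2.5, bedtools 2.17.0 and SAMtools 1.1 and the build was mm9, with no roles stated. Per the file headers, the authors' tables list IPA sites with a normalized signal per library, log2 fold changes with standard errors, a test score, p-values and adjusted p-values, and every listed adjusted p is 0.1 or lower. That a site is intronic is taken from the authors, and no sequence is printed because no mm9 genome was used here.

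Within each library every deposited signal value was a whole multiple of 1 step (100% within 0.1 read), and reads are the signal divided by that step. They serve description and limits only, since the deposited unit is a normalized signal. Usage, means and SD were computed from them. Peak-list reads were summed over each interval (same strand, overlap of at least 1 bp). Shares have exact 95% intervals (SciPy 1.17.1), and lines were compared with edgeR 4.0.16 in R 4.3.3, offset by list totals. DESeq2 1.42.0 was an alternative. Intervals on chromosomes missing from a compared list were left out, also for 4T07 against 168FARN, where all intervals had been planned.

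The edgeR fit was tested on simulated counts with known changes, at a set dispersion of 0.1. Changes of 2 log2 units were called at 44 of 90 intervals for 4T07 against 168FARN and 47 of 86 for 4T07 against 67NR. Those of 3 log2 units were called at 83 of 107 and 78 of 110. Unchanged intervals were called at 2 of 496 and 1 of 187. Many true changes of this size would thus be missed. The simulated counts used the mean reads of all tested intervals and a dispersion that was not fitted. How many changes would be called at silent sites alone was not simulated. The members, gene lists and tests were chosen with earlier results of these data known. Sites named are the 8 with the most treated reads, the 8 with the highest usage among sites with at least 10 IPA and last-exon reads in each treated library, genes with 3 or more silent sites, the 5 with the most list reads per library total in each other line, sites in a line table, up to 4 per gene list (some of these are not reported here), and 3 sites just outside the rule. Of 179 gene symbols, 179 matched the RefSeq table of GRCm38.p6, 12 under a newer symbol; symbols are printed as in the tables.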

Additional observations from a re-analysis of the deposited data

How the results depend on the processing

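Leaving out a 4T1 library changes the rule itself: 414 sites were at 0 in 4T1 replicate 1 alone and 287 in replicate 2 alone, an alternative chosen after seeing the data. Requiring the authors' adjusted p of at most 0.01 kept 56 of the 205 sites, with a median usage of 4.36%, and at most 0.05 kept 142. Requiring no 4T1 peak within 1000 bp, added after seeing the data, kept 136. Median usage without either 4T1-U1-ASO library was 3.39% to 3.40%. With at least 3 list reads the mean shares were 6.82% in 4T07, 3.72% in 168FARN and 13.9% in 67NR; the last rests on 67NR replicate 2 (21.3%), since replicate 1 stood at 6.57%, not above 4T07 (7.07% and 6.57%). With 50% of the peak inside the interval the 4T07 share was 19.2%, and on the chromosomes of every list the 168FARN share was 15.4%. Leaving out a library gave 20.2% to 22.2% in 4T07, 12.6% to 14.6% in 168FARN and 23.2% to 35.1% in 67NR.

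No silent site was called between lines under any alternative run, at library scaling, DESeq2, filter, overlap or left-out library. Over all intervals, 4T07 against 168FARN had 0 to 3 calls when a library was left out and 30 with DESeq2. The 3 calls of 4T07 against 67NR became 0 with TMM, with 50% of the peak inside and with the replicate block, 6 with DESeq2, and 0 to 2 without a library. The numbers of the replicates name no shared culture, and same-numbered libraries did not deviate together (correlation -0.0138 and -0.107); with the replicate block 0 silent sites were called, as without it. With the numbers crossed, an alternative added after seeing the data, 14 of the 394 intervals and 0 silent sites were called. Without a library, the log2 value of Prkag1 ran from -0.94 to 0.026 against 168FARN, changing sign without 4T07 replicate 1; it also changed sign with 50% of the peak inside (-5.43 against 67NR), where both 4T07 libraries stand at 0 reads and the fitted value depends on the prior count. Depth limits the tests to silent sites with 5 or more list reads over 4 libraries.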
